A study of Mus musculus with 2 samples.

Results

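The genes of programmed cell death and of the tumour necrosis factor (TNF) receptor family were compared between mouse embryoid bodies with and without Elongin A. Embryoid bodies are clusters formed by embryonic stem (ES) cells as they differentiate, and Elongin A is a subunit of a complex that helps RNA polymerase II elongate transcripts. Per the labels, 1 array held RNA from bodies of Elongin A+/+ ES cells and 1 from bodies of Elongin A-/- ES cells. Both were grown in medium with serum and N2 and collected at day 4 of treatment with 2 µM retinoic acid. The sources used here do not give how the Elongin A allele was deleted, nor how many ES cell lines, clones or cultures each array stands for. The genes were chosen by symbol: the Bcl2, Casp, Birc, Tnfrsf, Tnfsf, Traf and Trp53 families, and Bid, Bad, Bik, Bmf, Bbc3, Pmaip1, Mcl1, Apaf1, Cflar, Fadd, Mdm4 and Xiap. This gave 68 genes on 72 probes, of 13697 genes named by probes with a single symbol. Another 2 probes of the family carry several symbols each and were left out. Trp53, Mdm2, Bax, Bak1 and Casp9 were not analysed here.

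Cells die by apoptosis along a pair of routes. On the mitochondrial route, BH3-only proteins block the protective BCL2 proteins, which frees BAX and BAK to open the outer mitochondrial membrane, and cytochrome c then joins APAF1 to switch on caspases. On the receptor route, a TNF-family ligand engages a death receptor, which recruits FADD and caspase-8 unless CFLAR (also called FLIP) blocks them. The same receptors signal through TRAF adaptors and inhibitor of apoptosis (IAP) proteins to NF-kB, which favours survival, and p53 switches on several genes of the mitochondrial route. In embryoid bodies, apoptosis is known to shape the inner cavity and to accompany retinoic acid-driven differentiation.

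Each genotype has a single array, so there is no error between cultures and no difference was tested. The genotype cannot be told apart from the ES line, the culture or the array. The only error the data hold is the disagreement between probes of a gene, with an SD of 0.43 on the log2 scale over 224 genes that have several probes above the floor. All values below are quantile-normalised intensities in arbitrary units, given for Elongin A+/+ first, and log2 differences are Elongin A-/- minus Elongin A+/+. The floor is the median of an array, 1.03. A value under it was set to it, so a difference with 1 array under the floor is a bound, written "at least". A gene was called when the arrays were 2-fold or more apart. Eloa, the Elongin A gene, had 3.88 and 3.58, a log2 difference of -0.12. The sources used here do not say where its probe lies relative to the deleted sequence, so each direction rests on the labels.

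Most of these genes differed little, 5 were 2-fold or more lower on the Elongin A-/- array, and 1, Tnfrsf1a, was higher. Of the 68 genes, 45 exceeded the floor on at least 1 array: 30 on both, 11 only on the Elongin A-/- array and 4 only on the Elongin A+/+ array. The other 23 lay below it on both, with no intensity over 1.01. Of the 45, 1 (2.22%) was called higher and 5 (11.1%) lower, where the background over 9568 genes was 6.77% higher and 5.99% lower. The balance depended on the floor: with none, 8 were higher and 5 lower, beside 11.3% and 10.3% of all genes, the 7 added ones being Bik, Birc6, Mdm4, Tnfrsf13b, Tnfsf13b, Tnfsf8 and Traf3ip2. A gene that enters through its brighter array alone had to differ, so the 30 genes above the floor on both arrays were also counted apart. Among those, 1 was called higher and 3 (10%) lower, with a background of 5.23% higher and 4.68% lower over 7529 genes. These counts of 1 to 5 genes are a description of the arrays, and no share was tested against its background.

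**Figure D1:**
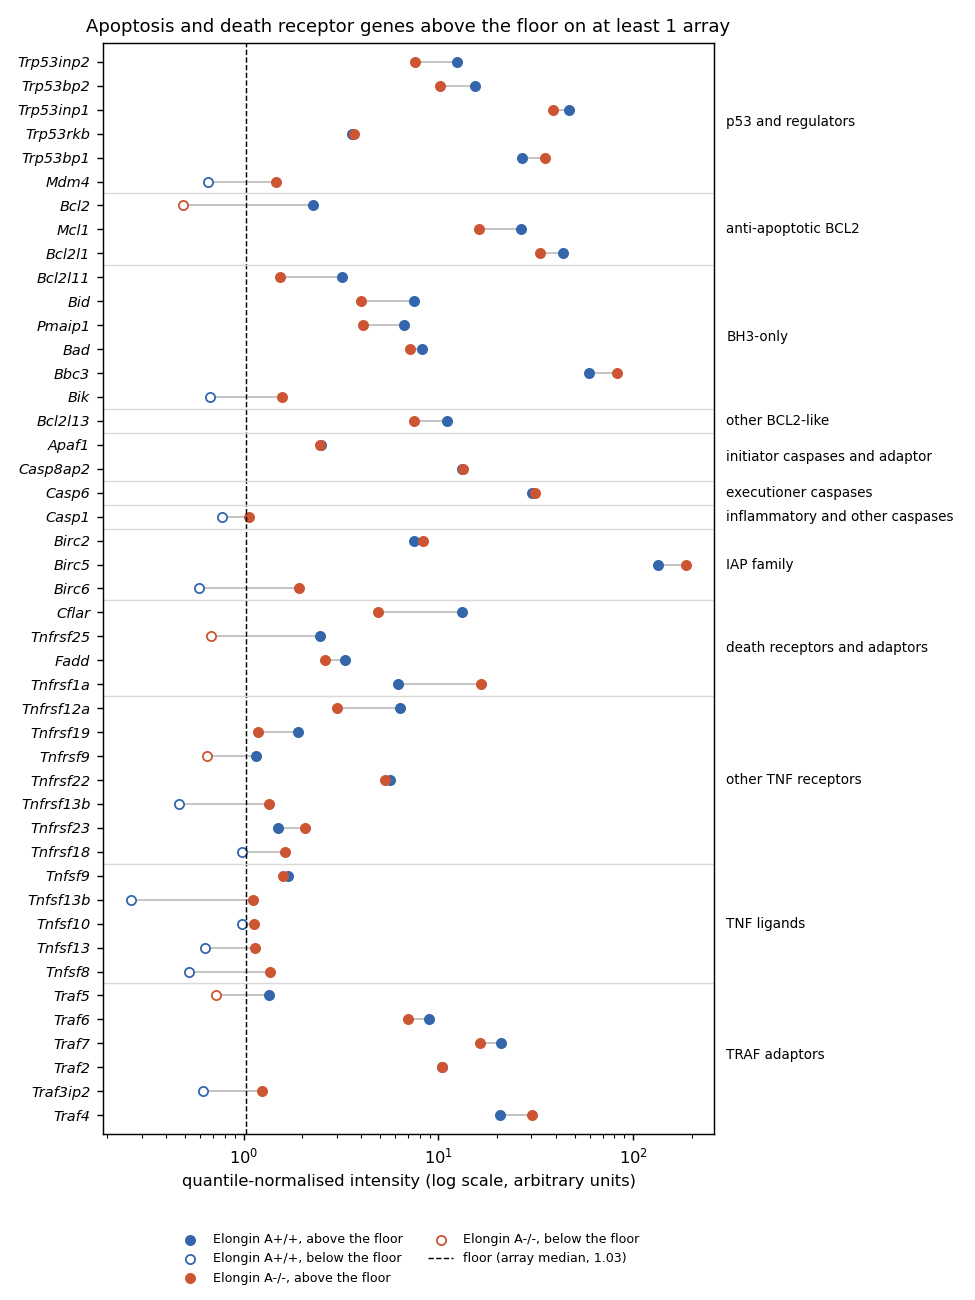
Quantile-normalised intensity (log axis, arbitrary units) of the 45 genes above the floor on at least 1 array, grouped by role, with the Elongin A+/+ array in blue and the Elongin A-/- array in red. Open circles lie below the floor of 1.03 (dashed line), and the wide gaps above it are those of Cflar (13.1 and 4.92) and Tnfrsf1a (6.18 and 16.5).

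The 30 genes above the floor on both arrays had a median log2 difference of -0.25 (binomial 95% interval over genes -0.55 to 0.02), beside -0.02 for all 7529 genes. That interval takes the genes as independent, holds no error between cultures, and is not a test against all genes. The same holds for the intervals over genes given further below. The differences of the 30 genes ran from -1.42 to 1.42, and 20 of them were lower by any margin and 10 higher. With the values as deposited the median was -0.13, and 16 were lower and 14 higher. That setting also moved the median of all genes, by 0.11 to 0.08, and among all genes 2-fold or more apart it raised the share that were higher from 53.1% to 64.0%. The sign of Apaf1, Traf2, Tnfrsf22 and Tnfsf9 turned between the scalings, and each of them lay within 0.13 of 0 in both. The middle 50% of the differences spanned 0.72, beside 0.66 for all genes.

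**Figure D2:**
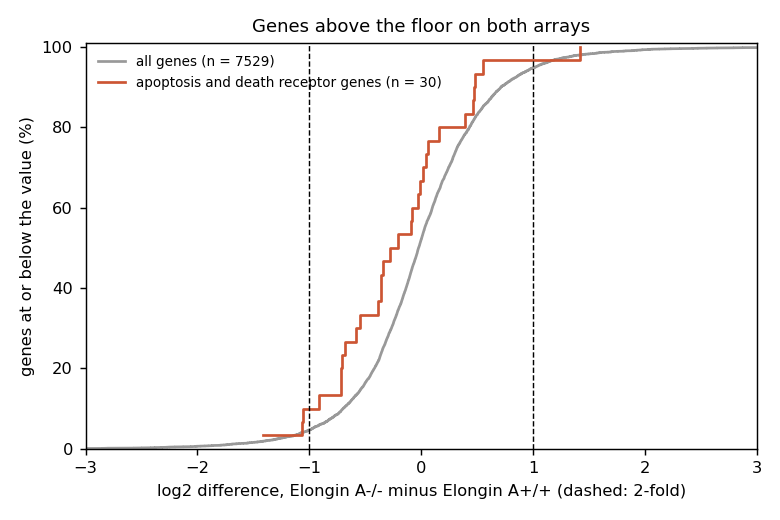
Share of genes (%, vertical axis) at or below each log2 difference (horizontal axis, Elongin A-/- minus Elongin A+/+) for the 30 apoptosis and death receptor genes and all 7529 genes above the floor on both arrays. The line of the 30 genes lies to the left over most of the range, with medians of -0.25 and -0.02, and dashed lines mark 2-fold.

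The death receptors and their adaptors held genes far apart in both directions. Tnfrsf1a, the main receptor for TNF and a carrier of a death domain, had 6.18 and 16.5, 2.67-fold higher on the Elongin A-/- array (log2 difference 1.42). It stayed 2-fold or more higher under each of 10 other ways of processing, at 1.28 to 1.68. Not all of these could move it. The gene has 1 probe and lay above each floor used, so other floors, no floor and the probe settings left it at 1.42. Only the scalings, the removal of chromosome medians and the pseudocount could change it. The gene is on chromosome 6, where the median over 518 measured genes was -0.26, and relative to that median its difference was 1.68. Tnfrsf25, another receptor with a death domain, had 2.45 and 0.68, at least 2.39-fold lower. Fadd, the adaptor that links such receptors to caspase-8, had 3.30 and 2.60 (-0.34). Tnfrsf21, also a death domain receptor, was below the floor on both arrays.

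Cflar, the inhibitor of caspase-8 at the receptor, is the gene whose probes part company. Probe 633300 had 13.1 and 4.92, 2.67-fold lower on the Elongin A-/- array (-1.42). Probe 826056 had 1.13 and 2.16, 1.91-fold higher (0.93), with its lower value just above the floor. The platform table ties these probes to different RefSeq transcripts of the gene, and which forms of the protein each stands for was not examined. The mean over both probes was -0.24. The brighter probe represents the gene in the counts here, so the call of Cflar holds for that probe and not for the gene as a whole.

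Among the protective BCL2 genes, Mcl1 and Bcl2l1 were above the floor on both arrays and Bcl2 only on the Elongin A+/+ array, so that its difference could only be lower. Bcl2, the founding member, had 2.26 on the Elongin A+/+ array and 0.49, below the floor, on the other, at least 2.20-fold lower. Its second probe was under the floor on either array. The mean over the probes, taken before the floor was applied, gave a bound of -0.23. Mcl1, a short-lived protector, had 26.4 and 16.1 (-0.72). Bcl2l1, the gene of BCL-XL, had 43.3 and 33.2 (-0.39). The direction of Mcl1 and Bcl2l1 was the same under each scaling tried, but both lay within 2-fold, and the Bcl2l1 difference is smaller than the SD between probes. Bcl2l10 was below the floor on both arrays.

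The BH3-only genes, which oppose those protectors, held values on either side. Bcl2l11, the gene of BIM, had 3.19 and 1.53, 2.08-fold lower (-1.06), but -0.93 with the values as deposited and -0.72 with a pseudocount at the floor, which ends its call. Bid, which carries the signal of caspase-8 to mitochondria, had 7.51 and 3.99 (-0.91). It lies on chromosome 6, and relative to that chromosome's median its difference was -0.65. Pmaip1, the gene of the p53 target NOXA, had 6.68 and 4.09 (-0.71), and Bad had 8.23 and 7.13 (-0.21).

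Bbc3, the gene of the p53 target PUMA, ran the other way with 59.2 and 82.4 (0.48), within 2-fold. Bik was above the floor only on the Elongin A-/- array, at 1.57, and Bmf on neither. The median of the 5 BH3-only genes above the floor on both arrays was -0.71, and 4 of the 5 were lower. That direction held under each scaling, but the size depended on the floor: at the 25th percentile 7 genes were on both arrays with a median of -0.21, and at the 75th only Bad and Bbc3, with a median of 0.13. The call count was 1 of 6 measured BH3-only genes and 1 of 3 protectors, too few to set against the background of 6.77% higher and 5.99% lower. Bcl2l13, a mitochondrial BCL2 relative, had 11.0 and 7.52 (-0.55) and lies on chromosome 6 as well.

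**Figure D3:**
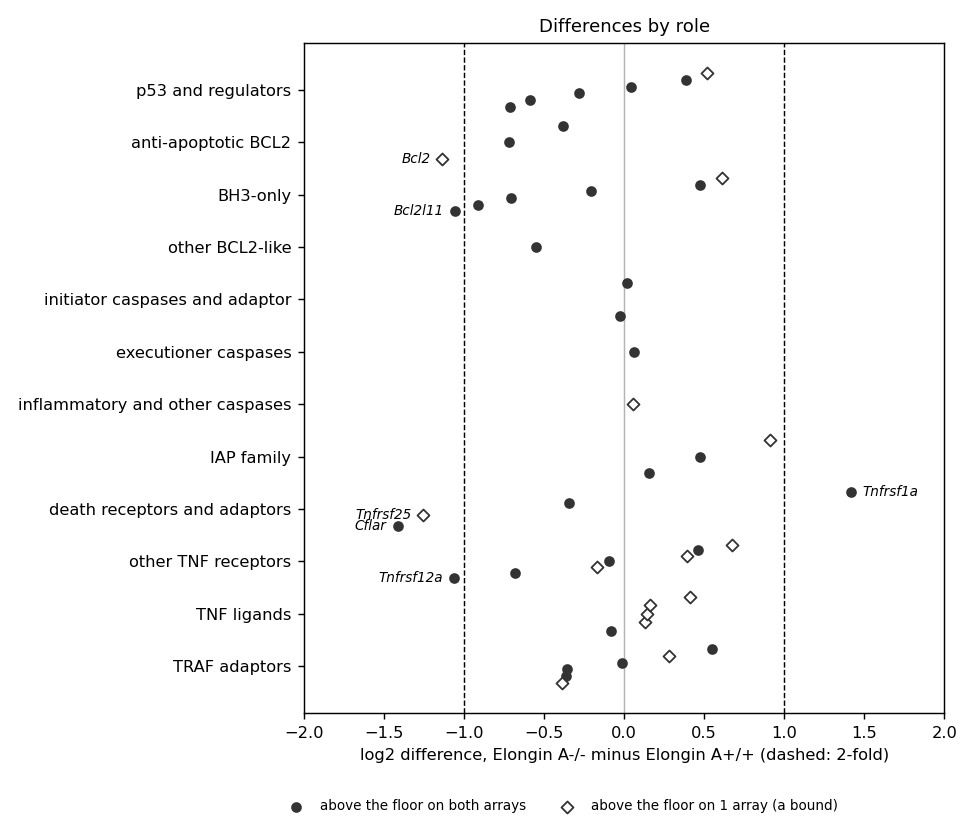
Log2 difference (horizontal axis, Elongin A-/- minus Elongin A+/+) of the same 45 genes by role, with dots for genes above the floor on both arrays, diamonds for bounds and dashed lines at 2-fold. The 6 genes past 2-fold are named, and only Tnfrsf1a (1.42) lies to the right.

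Caspase and apoptosome genes were almost level. Casp6, an executioner caspase, had 30.1 and 31.4 (0.06). Apaf1, the scaffold that activates caspase-9, had 2.50 and 2.45 (-0.03). Casp8ap2, a nuclear protein first found through caspase-8, had 13.3 and 13.4 (0.02). Casp1, an inflammatory caspase, had 0.77 and 1.07, at the floor. Casp2, Casp4, Casp8 and Casp14 were below the floor on both arrays, so no difference in caspase-8 RNA could be measured.

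Of the IAP genes 2 lay above the floor on both arrays, Birc5 and Birc2, and none was called. These are too few to set against the background of 6.77% higher and 5.99% lower. Birc5, the gene of survivin, which dividing cells express, had 134 and 187 (0.47). The gene is on chromosome 11, where the median over 803 measured genes was 0.41, and relative to that median its difference was 0.06. Birc2, which ubiquitinates proteins of the TNF receptor complex, had 7.48 and 8.32 (0.15). Birc6, a giant IAP, was below the floor at 0.59 on the Elongin A+/+ array and had 1.93 on the other, at least 1.88-fold higher. Birc3 and Xiap, the direct caspase inhibitor, were below the floor on both arrays.

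The p53-named genes were measured in 6 of 6 cases and none was called. With a background of 6.77% higher and 5.99% lower, few of 6 would pass, so that count says little. Trp53inp2, an autophagy factor, had 12.4 and 7.54 (-0.72). Trp53bp2, which steers p53 towards death genes, had 15.4 and 10.2 (-0.59). Trp53inp1, a p53-induced stress protein, had 46.9 and 38.5 (-0.28).

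Trp53bp1, a DNA break repair protein, had 26.8 and 35.1 (0.39). Its second probe had 0.31, below the floor, on the Elongin A+/+ array and 1.15 on the other, a difference of at least 0.16. The mean over its probes gave 1.14, past 2-fold. That mean was taken before the floor was applied, so it rests on the value of 0.31. Trp53rkb, a kinase gene with a close copy that its probe may not tell apart, had 3.59 and 3.70 (0.04). Mdm4, an inhibitor of p53, was below the floor at 0.65 on the Elongin A+/+ array and had 1.47 on the other, and it passed 2-fold (1.17) with no floor.

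Of the 14 other TNF receptors 7 were measured, and 1 was called. The background was 6.77% higher and 5.99% lower, and 7 genes are too few to set against it. Tnfrsf12a, the receptor of the ligand TWEAK, had 6.32 and 3.03, 2.09-fold lower (-1.06), but -0.92 with the values as deposited, -0.86 with a pseudocount and -0.28 at a 75th percentile floor, which ends its call. Tnfrsf19, a receptor of the developing nervous system and skin, had 1.91 and 1.19 (-0.68). The decoy receptors Tnfrsf22 (5.66 and 5.29) and Tnfrsf23 (1.5 and 2.06) differed by -0.10 and 0.46. Their sequences are similar, so their probes may share signal. Tnfrsf13b, Tnfrsf18 and Tnfrsf9, receptors of lymphocytes, were above the floor on 1 array only and never above 1.64.

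TNF ligands were at or near the floor throughout. Of 10 ligand genes 5 lay below it on both arrays, and 4, Tnfsf8, Tnfsf10, Tnfsf13 and Tnfsf13b, were above it only on the Elongin A-/- array, with intensities of 1.12 to 1.37. Tnfsf9, the remaining one, had 1.69 and 1.60. Tnfsf13 lies on chromosome 11, with a median of 0.41, and Tnfsf13b on chromosome 8, where the median over 522 measured genes was 0.43. Relative to those medians their bounds of 0.16 and 0.13 became -0.25 and -0.31. The TRAF adaptors were measured in 6 of 7 cases with none called, too few to set against the background of 6.77% higher and 5.99% lower. Traf4, an adaptor of development, had 20.7 and 30.3 (0.55) and lies on chromosome 11, relative to whose median the difference was 0.14. Traf2, the adaptor of TNF receptors, had 10.5 and 10.4, Traf6, the adaptor of interleukin-1 and Toll-like receptors, 8.93 and 6.94 (-0.36), and Traf7 21.0 and 16.4 (-0.36). The second probe of Traf6 was under the floor at 0.24 and 0.50, and with the mean over its probes the sign turned to 0.33. That mean was taken before the floor was applied, so the turn rests on those values under the floor.

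The 250 bases before the start site are shown for the 4 genes that were called and lay above the floor on both arrays, so that the higher gene can be set beside the lower ones. They come from RefSeq (GRCm38.p6), in which 58 of the 68 genes have an entry. Capitals mark matches on either strand to the GC box (GGGCGG), the CCAAT box (CCAAT), the TATA box (TATAAA), the p53 half-site or the NF-kB site, and neighbouring matches can overlap. The windows are Tnfrsf1a at chr6:125349473-125349722 (plus strand), Cflar at chr1:58711241-58711490 (plus), Tnfrsf12a at chr17:23677450-23677699 (minus) and Bcl2l11 at chr2:128125788-128126037 and chr2:128127325-128127574 (plus, for its pair of listed starts).
Tnfrsf1a: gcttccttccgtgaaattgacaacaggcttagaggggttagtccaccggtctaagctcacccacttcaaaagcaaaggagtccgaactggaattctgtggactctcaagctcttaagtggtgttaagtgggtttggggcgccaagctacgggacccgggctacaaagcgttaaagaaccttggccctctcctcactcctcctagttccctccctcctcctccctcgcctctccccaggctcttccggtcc
Cflar: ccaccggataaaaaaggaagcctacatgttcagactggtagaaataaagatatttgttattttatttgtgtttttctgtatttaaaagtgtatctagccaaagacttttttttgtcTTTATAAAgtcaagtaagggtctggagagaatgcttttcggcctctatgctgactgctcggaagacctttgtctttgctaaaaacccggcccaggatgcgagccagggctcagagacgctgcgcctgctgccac
Tnfrsf12a: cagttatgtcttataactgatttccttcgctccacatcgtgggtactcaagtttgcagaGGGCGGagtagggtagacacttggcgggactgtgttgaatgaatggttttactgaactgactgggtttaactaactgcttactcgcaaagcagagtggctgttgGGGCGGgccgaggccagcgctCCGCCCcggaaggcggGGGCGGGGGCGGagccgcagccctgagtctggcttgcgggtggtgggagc
Bcl2l11, first start: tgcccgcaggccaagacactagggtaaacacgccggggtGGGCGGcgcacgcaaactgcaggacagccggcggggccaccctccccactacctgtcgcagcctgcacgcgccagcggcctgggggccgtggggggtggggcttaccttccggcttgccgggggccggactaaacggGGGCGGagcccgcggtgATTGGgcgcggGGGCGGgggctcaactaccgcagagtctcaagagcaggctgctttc
Bcl2l11, second start: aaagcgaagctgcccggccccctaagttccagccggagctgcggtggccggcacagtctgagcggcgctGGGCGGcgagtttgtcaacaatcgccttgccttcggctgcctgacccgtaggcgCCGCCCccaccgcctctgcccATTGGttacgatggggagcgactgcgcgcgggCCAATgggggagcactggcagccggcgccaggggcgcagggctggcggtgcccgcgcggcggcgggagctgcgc

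Tnfrsf1a held none of the 5 motifs in this window and Cflar only a TATA box match, read on both strands at 1 place. Tnfrsf12a held 5 GC boxes and Bcl2l11 3 at its first start and 2 at its second, besides 1 and 2 CCAAT boxes. G and C made up 55.6% of the Tnfrsf1a window, 42.8% of that of Cflar, 58.8% of that of Tnfrsf12a, and 72.0% and 73.2% of those of Bcl2l11. No motif of the 5 was present in the windows of all 3 lower genes. Cflar counts as lower by its brighter probe only, and which of its probes goes with the start shown was not examined. Over all 32851 promoters of this length, 32.7% held a GC box, 33.8% a CCAAT box, 12.4% a TATA box, 7.13% a p53 half-site and 3.90% an NF-kB site. Over the 76 promoters of the genes studied here the shares were 47.4%, 22.4%, 7.89%, 3.95% and 9.21%. A match describes letters, not a bound site.

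Of 79 other genes of the same pathways, which the symbol rule does not take, 66 were named on the array and 51 measured. Of those 51, 6 (11.8%) were called higher and 1 (1.96%) lower, beside the same background of 6.77% and 5.99%. Above the floor on both arrays 4 of 44 (9.09%) were called higher and 0 lower, beside 5.23% and 4.68%. The largest differences lay in death receptor and NF-kB signalling, where 4 of 20 were called higher and 1 lower. Ripk3, the kinase that drives necroptosis, had 1.96 and 8.52 (2.12). Cd40, a TNF receptor that carries no Tnfrsf symbol here, had 1.40 and 5.24 (1.90).

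Edar, the ectodysplasin receptor, had 1.68 and 3.73 (1.15). Map3k5, the stress kinase ASK1, was below the floor at 0.99 on the Elongin A+/+ array and had 2.49 on the other, at least 2.42-fold higher. Ltb, the gene of lymphotoxin beta, had 4.39 and a value at the floor, at least 4.28-fold lower. The calls therefore lay at low intensities. Of the other 15 genes 11 were above the floor on both arrays and within 2-fold, and 4, Lta, Eda2r, Relt and Tab2, were above it only on the Elongin A+/+ array, so their differences are bounds. Among them Rela, the p65 subunit of NF-kB, had 6.54 and 3.67 (-0.83), and Tab1, a kinase adaptor, 42.7 and 46.2 (0.12). The median of the 14 genes above the floor on both arrays was -0.55 (-0.75 to 1.15), although 3 of the 14 were called higher and none lower.

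**Figure D4:**
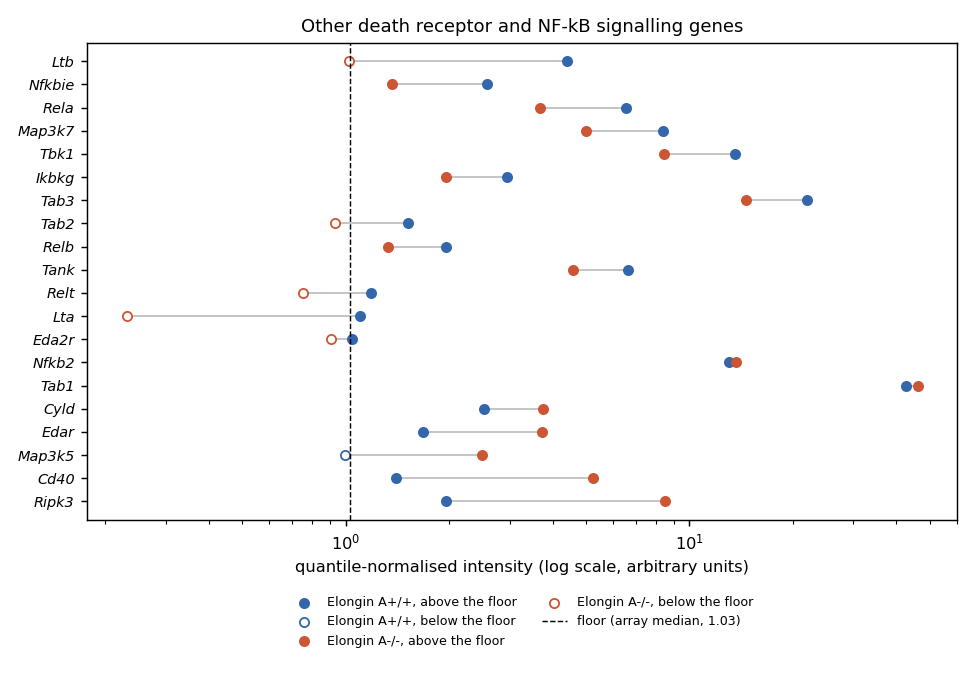
Quantile-normalised intensity (log axis, arbitrary units) of the 20 measured death receptor and NF-kB signalling genes outside the symbol rule, ordered by log2 difference, with Elongin A+/+ in blue, Elongin A-/- in red, open circles below the floor and the floor dashed. Ripk3 (1.96 and 8.52) and Cd40 (1.40 and 5.24) lie at the bottom and Ltb (4.39 and the floor) at the top.

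The mitochondrial and DNA-cutting genes outside the rule were level, with 0 of 16 measured genes 2-fold apart in either direction, beside 5.23% and 4.68% of all genes above the floor on both arrays, and a median of -0.03 (-0.31 to 0.16). At that background few of 16 would pass, so the count says little. Cycs, the gene of cytochrome c, had 380 and 324 (-0.23), Pdcd5 449 and 352 (-0.35), and Bcap31, an endoplasmic reticulum protein cut by caspase-8, 259 and 244 (-0.09). Cycs lies on chromosome 6, where the median difference was -0.26. Bok, a BAX relative, had 2.41 and 4.07 (0.75) and Vdac1, a mitochondrial channel, 62.7 and 103 (0.72). Vdac1 lies on chromosome 11, where the median difference was 0.41. Among p53 targets outside the rule 2 of 15 were called higher and none lower, beside 6.77% and 5.99% of all measured genes. Above the floor on both arrays it was 1 of 14 (7.14%), beside the background of 5.23%, with a median of 0.04 (-0.41 to 0.61). Ddit4, an mTOR inhibitor also induced by stress, had 11.1 and 31.2 (1.49), and Perp, a membrane protein of epithelia, was at least 2.54-fold higher. Cdkn1a, the p21 cell cycle inhibitor, had 18.3 and 28.1 (0.61), while Gadd45a had 79.0 and 47.1 (-0.75) and Tigar 10.4 and 5.30 (-0.97), both on chromosome 6. Ei24 had 167 and 148, and Phlda3 66.2 and 60.4.

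Some markers of other cell types moved between these arrays. The background over all measured genes was 6.77% higher and 5.99% lower. Of 11 endothelial and blood markers 7 were measured and 6 were 2-fold or more higher on the Elongin A-/- array. Summed intensities over the list were 10.3 and 148. Of the 6, 4 (Esam, Hbb-bh1, Pecam1 and Tal1) were above the floor only on that array, so they could only be higher. Kdr (2.23 and 54.4) and Cldn5 (1.56 and 60.2) were above it on both arrays. Spi1 ran the other way, with 1.76 and 0.35, the latter below the floor. Cdh5, Gata1, Ptprc and Tie1 were below the floor on both arrays, and so were the 3 immune markers named on the array, Cd3e, Itgam and Ptprc. Of 5 neural markers named, 4 were measured and 2 were 2-fold or more lower. These were Olig3 (40.8 and 5.72) and Sox1, which was above the floor only on the Elongin A+/+ array. Pax6 had 9.33 and 12.9 (0.46) and Tubb3 179 and 168 (-0.09). Sox1 and Tubb3 lie on chromosome 8, where the median over 522 measured genes was 0.43, so relative to its chromosome Tubb3 was not level. Summed intensities over the neural list were 232 and 188. Of 4 pluripotency markers 2, Dppa4 and Sall4, were called higher and 1, Zfp42, lower, with sums of 13.0 and 19.1. Zfp42 lies on chromosome 8 as well. Pou5f1 had 1.70 and 0.93, the latter below the floor. The part of these shifts in the differences of Tnfrsf1a, Cd40, Ripk3 and the lower genes was not tested. In whole bodies, fewer cells of a type and less RNA per cell cannot be told apart.

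**Figure D5:**
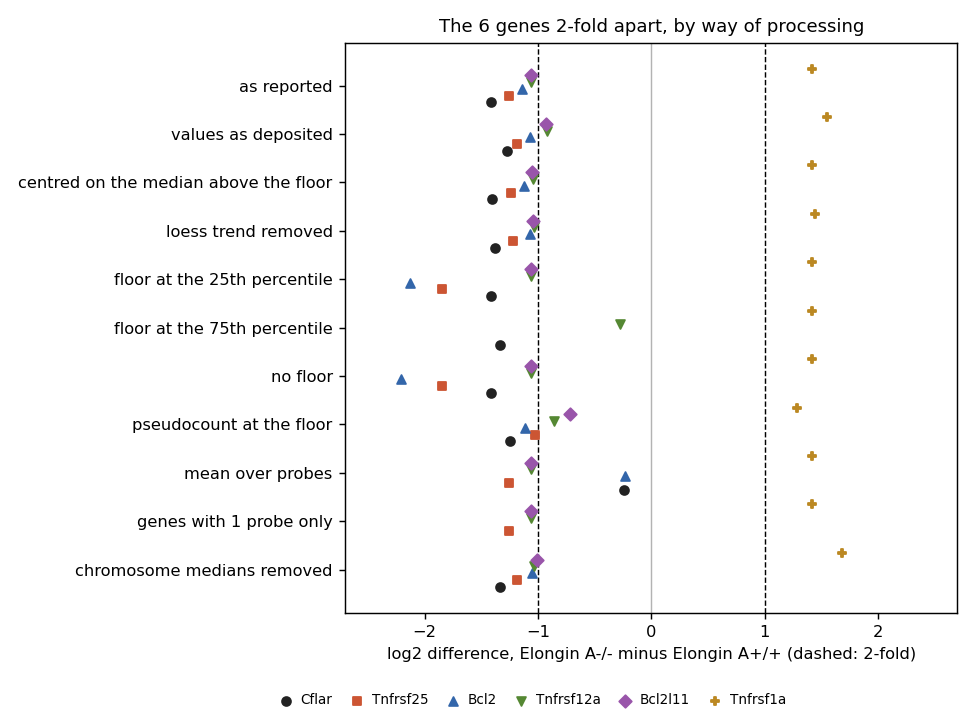
Log2 difference (horizontal axis, Elongin A-/- minus Elongin A+/+) of the 6 called genes as reported and under 10 other ways of processing (rows), with dashed lines at 2-fold. Tnfrsf1a lies past 2-fold in every row (1.28 to 1.68), Cflar and Bcl2 fall to -0.24 and -0.23 with the mean over probes, and a missing point means that the gene was not measured or has several probes. The rows for other floors, no floor and probes could not move Tnfrsf1a, which has 1 probe and lies above each floor.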

How the data were processed

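RNA from embryoid bodies was measured on 2 one-colour Applied Biosystems arrays, 1 per genotype, with 32440 probes each. The values deposited by the authors are intensities on a linear scale with medians of 1.02 and 1.03, and the sources used here do not state their normalization. Probes were named from the platform annotation, and 14253 have 1 symbol, 243 several and 17944 none. Chromosomes came from RefSeq (GRCm38.p6) by gene identifier, for all 68 genes. The arrays were quantile normalised, values under the array median (1.03) were set to it, and a gene with several probes took the one with the highest mean log2 value. Genes were called at 2-fold, with no p-value, since 1 array per genotype leaves no error. Quantile normalisation hides a shift of most genes in 1 direction. The members, roles and pathway lists were chosen with earlier results of these data known. The naming rule allows any member, giving values for called ones, bright ones and core genes. Outside the rule it takes called or bright genes of the pathway lists. Values of some other genes are also shown, among them Bok, Vdac1, Cdkn1a, Tigar and Rela, which the naming rule does not take. Alternatives covered scaling, floor, probes, chromosome and threshold (1.5-fold and 3-fold). The analysis was tested on simulated data, with changes planted only in bright genes that have 1 probe. The floor and the choice between probes, on which several calls rest, were not tested in this way. Python 3.11.15, numpy 2.4.6, pandas 2.3.3, scipy 1.17.1 and statsmodels 0.14.6 (loess span 0.3) were used.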

Additional observations from a re-analysis of the deposited data

How the results depend on the processing

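No paired analysis was possible because each genotype has 1 array. The median of -0.25 kept its sign under every scaling, floor, probe and chromosome setting tried, at -0.26 to -0.06. Of the lower genes, 3 in place of 5 were called with the values as deposited, genes with 1 probe only, the mean over probes or a pseudocount, and 1 when the floor was the 75th percentile, which leaves 23 members. Called higher were 8 in place of 1 with the floor at the 25th percentile or no floor, and 2 with the mean over probes. Part of these moves is shared by all genes, of which 8.36% were higher and 4.70% lower as deposited, 8.65% and 7.90% at the 25th percentile floor, 11.3% and 10.3% with no floor, and 2.61% and 2.19% at the 75th. The mean over probes was taken before the floor was applied, so it includes values under the floor. With it the TRAF median turned from -0.19 to 0.16, through the Traf6 probe that was under the floor on both arrays. At 1.5-fold 4 members were higher and 11 lower, with 15.8% and 14.8% of all genes, and at 3-fold 0 and 0, with 2.23% and 1.86%. Of the pathway genes, 2 were lower with the floor at the 25th percentile or no floor, and 1 was higher and 0 lower at the 75th percentile. At 1.5-fold 10 were higher and 9 lower, and at 3-fold 2 higher. No called member changed sign. Over single members, 392 values moved by less than the probe SD and 31 by more. Many of the 392 could not move. The probe settings leave a gene with 1 probe as it is, and a lower floor leaves a gene above the floor on both arrays as it is. Low intensities limit most calls: of the 6, only Cflar and Tnfrsf1a were still 2-fold apart with the floor at the 75th percentile.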
